A study of Gallus gallus with 6 samples.

Results

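The genes described here encode the ligands, receptors, extracellular antagonists and SMAD proteins of bone morphogenetic protein (BMP) and TGF-beta signalling in chicken muscle cells. The rule that chose them used names and no measured values, but it was set with earlier results of these data known. A gene was taken when its listed symbol began with BMP, TGFBR, SMAD, SMURF, GDF, ACVR, INHB, GREM, CHRD or LTBP, or was TGFB1, TGFB2, TGFB3, NOG, NBL1, BAMBI, ENG or SKIL. MSTN, INHBA, ACVR2A and ACVR2B and the 1 row on chromosome W, named SMAD7B, were left out. This gave 46 of the 24881 Ensembl genes in the tables. The symbols BMP1, BMP4, BMP6, TGFB2, TGFBR1, BMPR2, SMAD2, SMAD7, NBL1, LTBP3, LTBP4, GDF3, GDF7 and GDF15 were matched to no row. Genes of these symbols are not analysed here.

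The libraries were made from total RNA of primary muscle cells of chicken embryos, kept to passage 1. The 3 myotube libraries came from cells moved to RPMI-1640 medium with 2% horse serum, in which myoblasts leave the cell cycle and fuse. The 3 myoblast libraries came from proliferating cells in RPMI-1640 with 15% fetal bovine serum. Both media held penicillin and streptomycin. The labels give no strain, embryo age, time in the low-serum medium or batch, and do not say whether libraries came from separate cultures, so the p-values reflect differences among the deposited samples alone, and these may be technical. Medium and cell state changed together and cannot be told apart.

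In this pathway, dimeric ligands bring together type I and type II serine/threonine kinase receptors, and the type I receptor phosphorylates receptor-regulated SMADs. SMAD1, SMAD5 and SMAD9 serve the BMP branch and SMAD2 and SMAD3 the TGF-beta and activin branch. Both branches share SMAD4, while SMAD6 and SMAD7 inhibit. In muscle, TGF-beta is known to hold back myoblast differentiation, and BMP signalling is known to keep progenitors dividing, in part through the ID genes.

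Total counts were between 21893152 and 23519295 per myotube library and between 16052542 and 20981337 per myoblast library. All 6 matched myotube markers of 14 listed (MYOG, TNNT3, ACTN2, MYOM2, MYL1 and TMEM8C) rose. They summed to between 1551 and 1625 CPM (normalised counts) in myotubes and between 585 and 631 CPM in myoblasts. The 4 matched myoblast and progenitor markers of 5 (PAX3, MYF5, MYOD1 and DES) and all 5 proliferation markers fell. The fall of DES was only 1.14-fold. Markers of other cells moved too. Of 9 matched fibroblast markers of 11, 8 rose and TCF21 lay under the filter, with a summed level of 12131 to 13465 CPM in myotubes and 3643 to 3688 CPM in myoblasts. Of 8 matched macrophage and blood markers of 9, 6 fell, with 203 to 214 CPM in myotubes and 827 to 872 CPM in myoblasts. Of 5 adipocyte markers 1 rose and 3 fell, of 5 smooth muscle markers 3 rose and 1 fell, and of 4 matched Schwann cell markers of 5, 1 rose and 1 fell. The 5 matched endothelial markers of 8 were near 0, at 1.42 to 1.91 CPM in myotubes and 1.80 to 1.87 CPM in myoblasts. None of these matched markers was at 0 in all libraries. In bulk RNA, fewer cells of a type and less RNA per cell cannot be told apart, and the part of these other cells in the results below was not tested except where a value is given.

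Of the 46 genes, 34 passed the filter of a mean of at least 1 FPKM (fragments scaled to gene length and library depth) over the 6 libraries. By edgeR's quasi-likelihood test, with calls made below an adjusted p of 0.05, 18 of the 34 were higher and 10 lower in myotubes, and 6 were not called. That is 82.4% called, against 72.5% of all 12808 genes tested, with 52.9% higher against 36.7% and 29.4% lower against 35.7%. On a scale of equal summed FPKM (TPM, tested as log2(TPM + 1) with limma), all genes split into 5865 higher and 3492 lower, in place of 4706 and 4577, and the median log2 fold change of all genes moved to 0.19, in place of 0.01. The 34 genes split into 20 higher and 9 lower on that scale. Of the called genes, 68.97% of these and 62.68% over all genes were then higher, in place of 64.29% and 50.69%. A call with a change of at least 2-fold was made for 12 of the 34, 4 higher (14.1% of all genes) and 8 lower (11.1% of all genes). The groups did not overlap in 27 of the 34, against 76.1% of all genes. BMP3 and GREM1, both among the 8 lower, passed the filter only through myoblasts, and a gene that passes in this way has to differ.

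**Figure D1:**
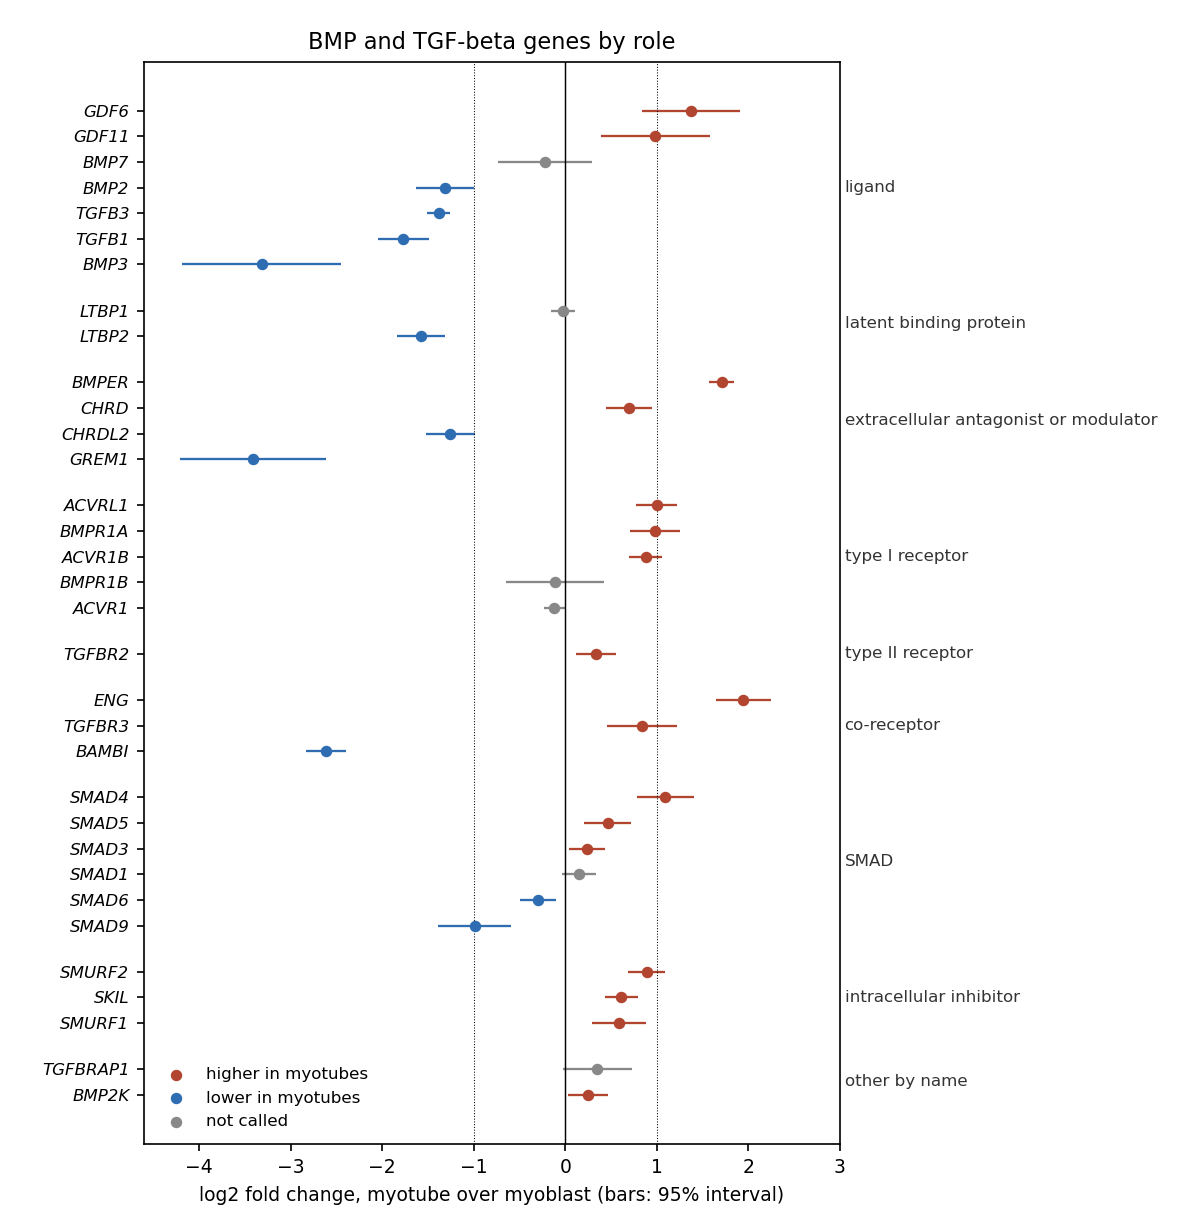
The log2 fold change of myotubes over myoblasts (x axis) is plotted for 33 of the 34 genes that passed the filter, grouped by role, with 95% intervals as bars and dotted lines at a 2-fold change. TGFB3 and TGFB1 lie left of 0 at -1.38 and -1.77, and the called type I receptors lie right of it between 0.88 and 1.00.

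Ligand genes changed in both directions. TGFB1 and TGFB3, by far the most abundant of the 16 ligand genes analysed here, fell, as did BMP2 and BMP3, while GDF6 and GDF11 rose. TGFB2, BMP4 and BMP6 were matched to no row. TGFB1 (ENSGALG00000031325, on an unplaced scaffold at 24391 to 29927) stood at 260, 226 and 176 CPM in the myotube libraries, against 700, 749 and 807 CPM in the myoblast libraries. All myotube libraries lay below all myoblast libraries. The log2 fold change was -1.77 ± 0.12 (SE), a 3.41-fold fall (edgeR adjusted p = 6.6e-07). Macrophages are a known source of TGFB1, and the macrophage markers above fell in the same libraries; their part in this fall was not tested.

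TGFB3 (chromosome 5, 38503286 to 38517228) stood at 423, 440 and 427 CPM in myotubes, against 1067, 1133 and 1165 CPM in myoblasts. The 3 myotube values lay close together and well under the lowest myoblast value. It fell 2.61-fold (log2 fold change -1.38 ± 0.06, edgeR adjusted p = 1.5e-08). Per length, TGFB3 averaged 197 ± 5.98 FPKM in myotubes and 491 ± 16.98 FPKM in myoblasts, and TGFB1 averaged 167 ± 30.5 FPKM in myotubes and 544 ± 32.8 FPKM in myoblasts (SD, n = 3 each). The order of these ligands by mean FPKM therefore differed between the groups, with TGFB3 first in myotubes and TGFB1 first in myoblasts. The FPKM of TGFB1 implied a length of 1323 bases, against 1464 listed, so this order depends on the length used. By mean CPM, TGFB3 led TGFB1 in both groups, with 430 against 221 CPM in myotubes and 1122 against 752 CPM in myoblasts. TGFB3 made up 49.6, 54.1 and 59.5% of the summed FPKM of both genes in myotubes and 48.0, 47.8 and 46.6% in myoblasts.

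BMP2, a ligand of the BMP branch, had 3.70, 3.12 and 3.50 CPM in myotubes, against 7.99, 8.99 and 8.71 CPM in myoblasts. It fell 2.49-fold without overlap (log2 fold change -1.32 ± 0.14, edgeR adjusted p = 1.6e-05). BMP3, an atypical BMP that opposes other BMPs in bone of mammals, had 0.258, 0.693 and 0.182 CPM in myotubes, against 3.54, 4.68 and 3.32 CPM in myoblasts. Its 26 counts over the myotube libraries stood against 196 over the myoblast libraries. BMP3 fell 9.96-fold (log2 fold change -3.32 ± 0.39, edgeR adjusted p = 2.7e-05), and the log2 fold change was -4.08 without myotube replicate 2, the highest of its group. BMP3 passed the filter only through myoblasts, so it had to differ, and its p-value adds no support.

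GDF6, a ligand best known from joint and eye development, had 4.09, 3.25 and 3.95 CPM in myotubes, against 1.93, 1.31 and 1.16 CPM in myoblasts. It rose 2.58-fold with no overlap (log2 fold change 1.37 ± 0.24, edgeR adjusted p = 0.00048). GDF11, the closest relative of myostatin, averaged 2.81 ± 0.311 CPM in myotubes and 1.43 ± 0.496 CPM in myoblasts and rose 1.98-fold (edgeR adjusted p = 0.0074). BMP7 was not called, at 2.98 ± 0.833 CPM in myotubes and 3.47 ± 0.0814 CPM in myoblasts, with a 95% interval of the log2 fold change from -0.73 to 0.30. The most abundant of these 5 ligands per length, BMP2 at 6.51 FPKM in myoblasts, stood far under TGFB1 and TGFB3.

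The other 9 ligand genes lay under the filter. BMP5 had 66 counts over the myotube libraries and 17 over the myoblast libraries, and INHBB, the beta B chain of activin and inhibin, had 31 and 62. With no filter on low values edgeR called BMP5 higher (log2 fold change 1.54, adjusted p = 0.012) and INHBB lower (log2 fold change -1.40, adjusted p = 0.01). BMP15 and GDF9, ligands of the ovarian follicle, had 23 and 10 counts in myotubes and 29 and 11 in myoblasts. BMP10 had 1 count in myotubes and 3 in myoblasts. GDF5 had 6 counts in myotubes, GDF10 had 3 and GDF2 had 2, with 0 counts of any of them in myoblasts. In CPM, the 6 counts of GDF5 stood 1.504-fold above 3 counts over the myoblast libraries, a value that leaves out counting error in the 6. The 95% exact interval of its myotube over myoblast ratio began at 0.885 (counting error only), so it included no difference. With no filter edgeR did not call GDF5 (adjusted p = 0.088). INHBE had 0 counts in all 6 libraries, where 3 counts over a group would be 0.0439 CPM in myotubes and 0.0584 CPM in myoblasts, a limit that covers counting error only.

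**Figure D2:**
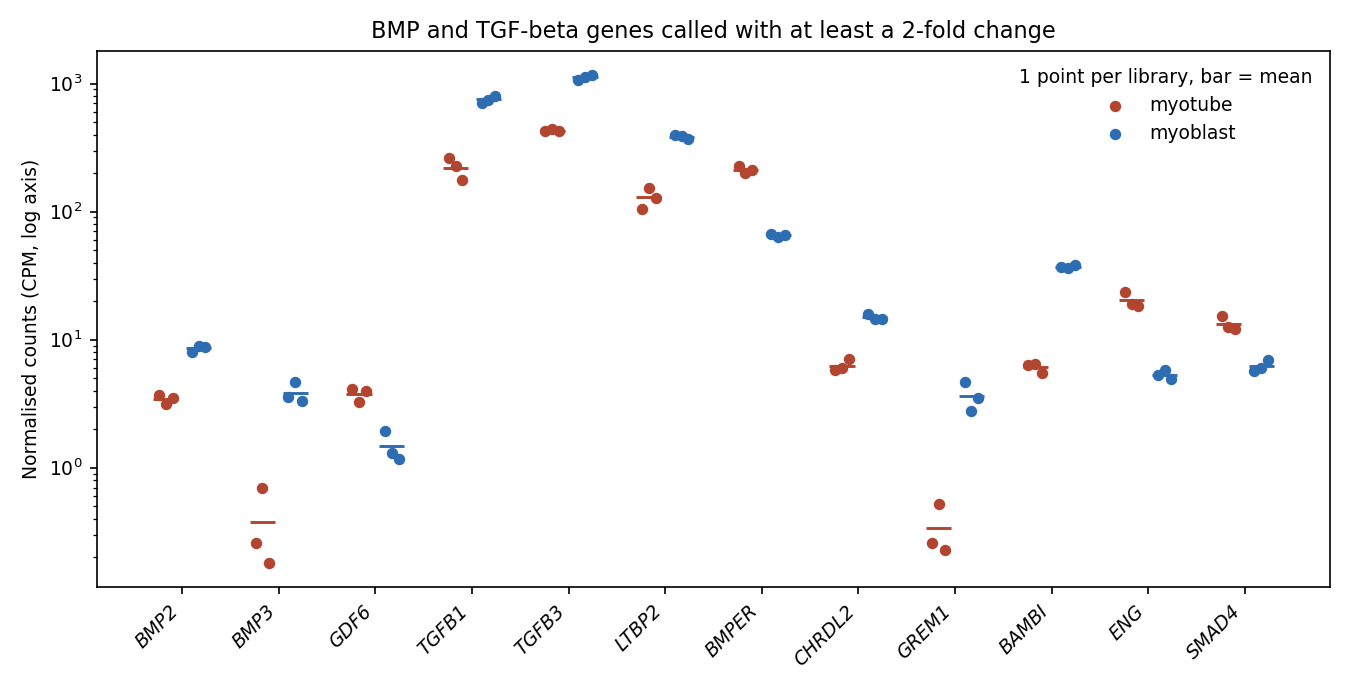
Normalised counts (CPM, log axis) in each library are plotted for the 12 genes called with a change of at least 2-fold, with 1 point per library and a bar at the mean of 3. TGFB3 lies highest in each group, TGFB1 lies next in myoblasts, and TGFB1 and BMPER overlap in myotubes. In each of the 12 genes the myotube points stand clear of the myoblast points, which follows largely from how the 12 were chosen. The groups did not overlap in 76.1% of all tested genes.

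The latent TGF-beta binding proteins analysed here parted, while LTBP3 and LTBP4 were matched to no row. LTBP1, which anchors latent TGF-beta in the matrix, was not called, at 585 ± 18.0 CPM in myotubes and 597 ± 31.6 CPM in myoblasts. Its 95% interval of the log2 fold change ran from -0.16 to 0.10, and its sign turned with the scaling. LTBP2, a matrix microfibril protein of the same family that is known not to bind latent TGF-beta, had 105, 154 and 129 CPM in myotubes, against 399, 388 and 368 CPM in myoblasts. Every myotube library stood below every myoblast library. It fell 2.98-fold (log2 fold change -1.58 ± 0.12, edgeR adjusted p = 9.1e-07). The fibroblast markers rose in the same libraries, and the part of such cells in the LTBP2 change was not tested.

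Extracellular antagonists and modulators of BMP changed in both directions. BMPER (chromosome 2, 47688331 to 47834840), a secreted protein that binds BMPs and can inhibit or promote their action, had 226, 200 and 211 CPM in myotubes, against 67.3, 62.9 and 65.1 CPM in myoblasts. The lowest myotube library was far above the highest myoblast library. It rose 3.27-fold (log2 fold change 1.71 ± 0.06, edgeR adjusted p = 7.1e-09). BMPER was the most abundant of the 7 antagonists and modulators per length, with 72.97 to 76.7% of their summed FPKM in myotubes and 42.3 to 46.3% in myoblasts.

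CHRD, which encodes the BMP antagonist chordin, rose 1.62-fold, at 26.1 ± 3.09 CPM in myotubes and 16.1 ± 1.25 CPM in myoblasts (edgeR adjusted p = 0.00026). GREM1, a secreted BMP antagonist of the DAN family, moved the other way, with 0.258, 0.520 and 0.227 CPM in myotubes, against 4.70, 2.75 and 3.48 CPM in myoblasts. GREM1 fell 10.6-fold without overlap (log2 fold change -3.41 ± 0.36, edgeR adjusted p = 1.2e-05), with 23 counts over the myotube libraries and 186 over the myoblast libraries. GREM1 passed the filter only through myoblasts, so it had to differ, and its p-value and lack of overlap add no support.

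The chordin-like genes also parted. CHRDL2 had 5.77, 5.98 and 7.04 CPM in myotubes, against 15.97, 14.6 and 14.4 CPM in myoblasts. It fell 2.39-fold with separate groups (log2 fold change -1.26 ± 0.12, edgeR adjusted p = 6e-06). CHRDL1 lay under the filter, with 352 counts in myotubes and 70 in myoblasts, and with no filter edgeR called it higher (log2 fold change 1.92, adjusted p = 2e-05). NOG, which encodes the BMP antagonist noggin, also lay under it, with 5 counts over the myotube libraries and 65 over the myoblast libraries. That is a ratio of 0.0578 (95% exact interval 0.0182 to 0.142, counting error only), and with no filter edgeR called NOG lower (adjusted p = 0.00011). Of the antagonists in the name rule, the lowest myotube counts were those of NOG and GREM1.

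Several receptor genes were called higher in myotubes, as were 36.7% of all tested genes, but BAMBI fell and ACVR1, the most abundant receptor here, was not called. TGFBR1 and BMPR2 were matched to no row, and ACVR2A and ACVR2B were left out by the name rule. Of the 6 type I receptor genes, ACVR1B, ACVRL1 and BMPR1A rose by 1.84 to 1.996-fold, ACVR1 and BMPR1B were not called, and ACVR1C lay under the filter. BMPR1A, the ALK3 receptor of BMP2 and BMP4, had 36.1, 48.3 and 45.6 CPM in myotubes, against 24.7, 21.4 and 19.999 CPM in myoblasts. The groups did not overlap, and it rose 1.97-fold (log2 fold change 0.98 ± 0.12, edgeR adjusted p = 4.2e-05). Its paralog BMPR1B was scarce, at 3.30 ± 0.793 CPM in myotubes and 3.58 ± 0.745 CPM in myoblasts, with overlapping groups and a 95% interval of the log2 fold change from -0.64 to 0.42.

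ACVR1B, the ALK4 receptor of activins and myostatin, stood at 65.5 ± 4.68 CPM in myotubes and 35.6 ± 2.22 CPM in myoblasts and rose 1.84-fold (edgeR adjusted p = 5e-06). ACVRL1, the ALK1 receptor best known from endothelium, had 25.3, 24.6 and 21.9 CPM in myotubes, against 12.6, 11.1 and 12.2 CPM in myoblasts. It rose 1.996-fold (log2 fold change 1.00 ± 0.10, edgeR adjusted p = 9.2e-06). The summed level of the 5 endothelial markers was 1.42 to 1.91 CPM in myotubes and 1.80 to 1.87 CPM in myoblasts, and their part in this rise was not tested. ACVR1B and ACVRL1 are neighbours on chromosome 33 and share 135 bases of their listed positions (9635 to 25890 and 25756 to 32131) on the same strand. How reads there were assigned is not known.

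ACVR1, the ALK2 receptor of BMPs, had 185, 175 and 184 CPM in myotubes, against 194, 201 and 196 CPM in myoblasts. The groups did not overlap, but ACVR1 was not called (log2 fold change -0.12 ± 0.05, edgeR adjusted p = 0.058), and the log2 fold change was 0.07 on the scale of equal summed FPKM. ACVR1 was called lower with median-of-ratios scaling (adjusted p = 0.046), with the filterByExpr filter (adjusted p = 0.027) and without myotube replicate 1 (adjusted p = 0.05 after rounding), all in edgeR. Its listed position spans 4 other genes, among them PKP4 on the opposite strand. It led the type I receptors by far, at 92.1 ± 2.47 FPKM in myotubes and 95.8 ± 1.97 FPKM in myoblasts (SD, n = 3 each). Its share of the summed FPKM of the 6 type I receptors was 56.0 to 61.1% in myotubes and 73.1 to 75.4% in myoblasts. ACVR1B held 15.3 to 17.01% in myotubes and 9.47 to 10.8% in myoblasts, and BMPR1A held 11.9 to 15.5% in myotubes and 7.59 to 9.28% in myoblasts. ACVR1C, the ALK7 receptor, had 12 counts in myotubes and 28 in myoblasts, and with no filter edgeR called it lower (log2 fold change -1.60, adjusted p = 0.024).

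TGFBR2, the type II receptor of TGF-beta, had 29.0, 31.4 and 34.0 CPM in myotubes, against 26.8, 26.0 and 22.1 CPM in myoblasts. It rose 1.26-fold (edgeR adjusted p = 0.01), the smallest of the receptor rises called here. TGFBR3, the co-receptor betaglycan, had 34.6, 39.5 and 56.6 CPM in myotubes, against 26.2, 26.0 and 20.8 CPM in myoblasts, and rose 1.79-fold (edgeR adjusted p = 0.0013). Myotube replicate 3 stood above the other myotube libraries. ENG, the co-receptor endoglin, had 23.8, 19.1 and 18.5 CPM in myotubes, against 5.28, 5.75 and 4.94 CPM in myoblasts.

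ENG rose 3.85-fold without overlap (log2 fold change 1.94 ± 0.13, edgeR adjusted p = 6.1e-07). This was the largest rise of the 34 genes in this fit, but on log2(FPKM + 1) by limma the log2 fold change of ENG was 1.66 and that of BMPER 1.73. Endoglin is abundant in endothelium. The 5 endothelial markers CDH5, KDR, TEK, TIE1 and VWF held 1.42 to 1.91 CPM in all in myotubes and 1.80 to 1.87 CPM in myoblasts. Mesenchymal cells can carry endoglin as well, and the fibroblast markers rose in the same libraries. The part of either kind of cell in the rise was not tested.

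BAMBI (chromosome 2, 15317843 to 15321683), a pseudoreceptor that lacks the kinase domain and blocks type I receptors, fell. It had 6.29, 6.50 and 5.49 CPM in myotubes, against 37.2, 36.1 and 38.5 CPM in myoblasts. The values of each group lay within a narrow band, far apart from the other. BAMBI fell 6.11-fold (log2 fold change -2.61 ± 0.10, edgeR adjusted p = 8.7e-09). In this fit BMP3 and GREM1 had larger falls at lower levels, but on log2(FPKM + 1) by limma, which understates changes of low genes, the log2 fold changes were -1.51 for BMP3, -2.0035 for GREM1 and -2.39 for BAMBI.

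**Figure D3:**
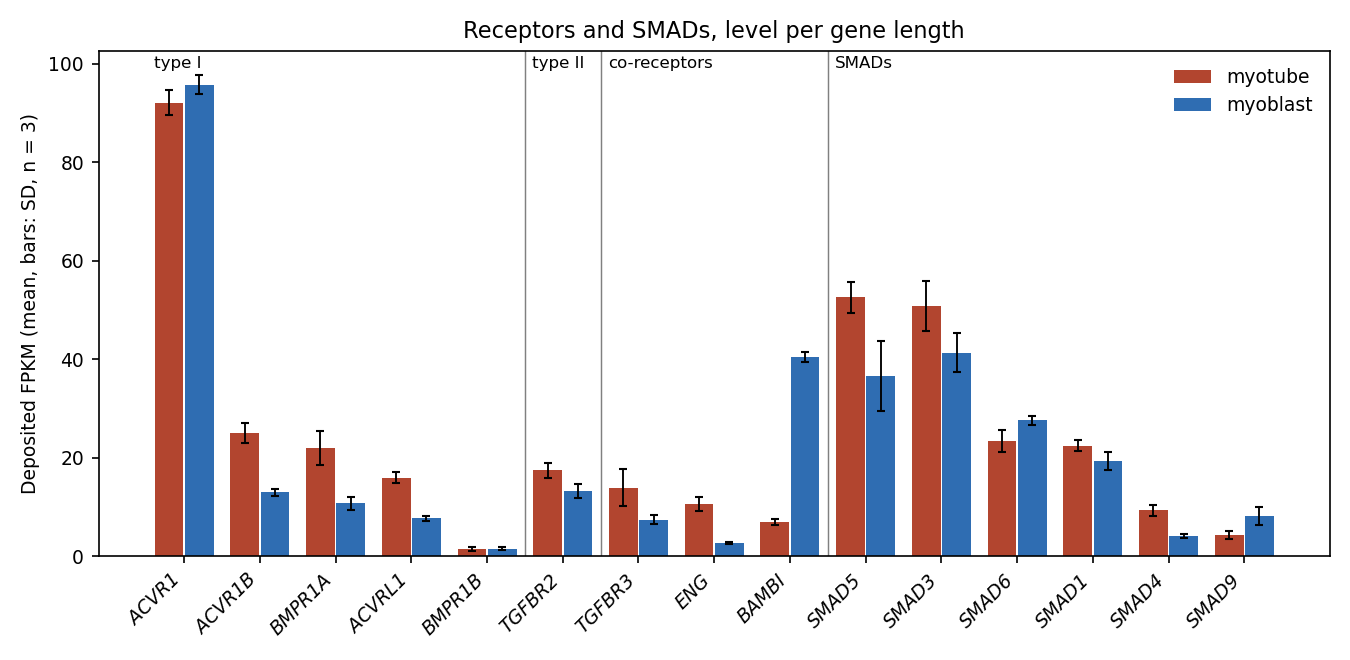
Deposited FPKM (mean of 3 libraries, bars showing the SD) is plotted for the receptors and SMADs that passed the filter, with myotubes left of myoblasts. ACVR1 leads the receptors in both groups at 92.1 and 95.8 FPKM, and BAMBI stands at 6.91 FPKM in myotubes and 40.4 FPKM in myoblasts.

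Among the SMADs, SMAD4 and SMAD5 rose, SMAD9 fell, and the changes of SMAD1, SMAD3 and SMAD6 were small. SMAD4, the common partner, had 15.4, 12.5 and 12.03 CPM in myotubes, against 5.67, 5.996 and 6.95 CPM in myoblasts. It rose 2.13-fold without overlap (log2 fold change 1.09 ± 0.14, edgeR adjusted p = 5.4e-05). The row of this name lies on chromosome 25 (1838113 to 1844548), and any other SMAD4 locus was not analysed here. SMAD5 rose 1.38-fold, at 74.0 ± 3.94 CPM in myotubes and 53.8 ± 9.92 CPM in myoblasts (edgeR adjusted p = 0.0048).

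SMAD9 had 4.91, 6.15 and 6.76 CPM in myotubes, against 14.7, 10.8 and 10.0 CPM in myoblasts. It fell 1.99-fold (log2 fold change -0.99 ± 0.18, edgeR adjusted p = 0.00057). SMAD1 was not called, at 40.1 ± 2.09 CPM in myotubes and 36.1 ± 3.0004 CPM in myoblasts (log2 fold change 0.15 ± 0.08, edgeR adjusted p = 0.12). It was called higher with library totals (edgeR adjusted p = 0.047) and, by limma, on the FPKM scales (adjusted p = 0.049) and on the TPM scale (adjusted p = 0.011). Per length, SMAD5 was the most abundant of the 3 BMP-branch SMADs, with 66.0 to 66.5% of their summed FPKM in myotubes and 55.6 to 58.6% in myoblasts. SMAD9 held 4.57 to 5.81% in myotubes and 12.02 to 13.5% in myoblasts.

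SMAD3, the TGF-beta branch SMAD, was called 1.18-fold higher, at 67.5 ± 6.11 CPM in myotubes and 57.3 ± 4.84 CPM in myoblasts, but its groups overlapped. The edgeR adjusted p was 0.035, and it was 0.066 and 0.12 without myotube replicates 2 and 3 and 0.1 and 0.12 without myoblast replicates 2 and 3. SMAD6, the inhibitory SMAD of the BMP branch, had 37.7, 32.1 and 31.1 CPM in myotubes, against 40.4, 43.0 and 40.8 CPM in myoblasts. It fell 1.23-fold (edgeR adjusted p = 0.01), but the call was lost on the scale of equal summed FPKM (limma adjusted p = 0.21).

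SMURF1, SMURF2 and SKIL, which act as inhibitors inside the cell, each rose by less than 2-fold. The inhibitory SMAD6, grouped with the SMADs above, was called lower. Over all tested genes, 36.7% were called higher. SMURF2, a ubiquitin ligase that marks SMADs and receptors for breakdown, had 82.6, 97.1 and 96.7 CPM in myotubes, against 53.9, 50.03 and 45.6 CPM in myoblasts, and rose 1.85-fold (edgeR adjusted p = 8.2e-06). SMURF1, its paralog, rose 1.503-fold, at 26.7 ± 1.39 CPM in myotubes and 17.8 ± 3.53 CPM in myoblasts (edgeR adjusted p = 0.0026). SKIL, which encodes the SMAD corepressor SnoN, rose 1.53-fold, at 47.8 ± 2.72 CPM in myotubes and 31.2 ± 2.07 CPM in myoblasts (edgeR adjusted p = 5.4e-05). SMURF1, SMURF2 and SKIL did not overlap between groups, which also held for 76.1% of all tested genes.

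A pair of genes carry the family's names but are not core components. BMP2K, a kinase of clathrin-mediated endocytosis named for its induction by BMP2, was called 1.19-fold higher, at 49.4 ± 5.64 CPM in myotubes and 41.6 ± 3.30 CPM in myoblasts (edgeR adjusted p = 0.042). Its groups overlapped, and the adjusted p was 0.052 and 0.15 without myotube replicates 2 and 3 and 0.12 and 0.14 without myoblast replicates 2 and 3. TGFBRAP1, a vesicle tethering protein that also binds TGF-beta receptors, was not called (log2 fold change 0.35 ± 0.17, edgeR adjusted p = 0.084; adjusted p = 0.029 without myoblast replicate 1, and 0.037 by limma on the TPM scale).

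Levels per length spanned nearly the whole range of tested genes. By mean FPKM over the 12808 tested genes, TGFB3 ranked 447 in myotubes and 210 in myoblasts, and TGFB1 ranked 549 in myotubes and 185 in myoblasts. LTBP1 ranked 514 in myotubes, between TGFB3 and TGFB1, and 658 in myoblasts, below both. It averaged 179 ± 7.45 FPKM in myotubes and 174 ± 11.1 FPKM in myoblasts. BMPER ranked 1240 in myotubes and 4299 in myoblasts, and BAMBI ranked 8962 in myotubes and 2855 in myoblasts. Summed over the 16 ligand genes, FPKM was 397, 387 and 343 in the myotube libraries and 999, 1056 and 1095 in the myoblast libraries. Most of that was TGFB3 (means of 197 in myotubes and 491 in myoblasts) and TGFB1 (167 in myotubes and 544 in myoblasts). Over the 7 antagonists and modulators it was 113, 107 and 110 in the myotube libraries and 59.6, 50.5 and 54.3 in the myoblast libraries. BMPER alone averaged 82.4 FPKM in myotubes and 24.1 FPKM in myoblasts, while GREM1 and CHRDL2 fell. Neither sum stands for the other genes of its class. The deposited FPKM fitted the listed gene length within 1% in 32 of the 46 genes and implied another length in most of the rest, ACVR1, LTBP1 and TGFB1 included, so orders between genes depend on the length the authors used.

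Other genes of the pathway were taken from 3 lists, and each gene named from them here except TAGLN was called (edgeR adjusted p of 0.0065 for RGMB and less for the rest). The extracellular list holds further antagonists, proteases, co-receptors and matrix proteins that bind or release the ligands. Of 44 entries, 33 matched and 25 passed the filter, of which 12 rose, 7 fell and 6 were not called, beside 36.7% higher, 35.7% lower and 72.5% called in all over all tested genes. Its median log2 fold change was 0.35, against 0.01 over all tested genes. FBN2, a microfibril protein that binds latent complexes and BMPs, averaged 50.1 CPM in myotubes and 4.504 CPM in myoblasts (log2 fold change 3.48 ± 0.11). PCSK6, a convertase that cleaves ligand precursors, averaged 76.8 CPM in myotubes and 14.2 CPM in myoblasts (log2 fold change 2.44 ± 0.12). THBS1, which activates latent TGF-beta, averaged 764 CPM in myotubes and 5968 CPM in myoblasts (log2 fold change -2.97 ± 0.08).

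FSTL3, an activin antagonist, averaged 2.31 CPM in myotubes and 6.53 CPM in myoblasts (log2 fold change -1.49 ± 0.26). The repulsive guidance molecules RGMA and RGMB, BMP co-receptors, and their binding partner NEO1 all rose, with log2 fold changes of 1.22 ± 0.09, 0.72 ± 0.19 and 1.30 ± 0.10; these 3 were picked after their values were seen. The list shares DCN with the fibroblast markers, which rose.

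The intracellular list holds corepressors, coactivators, ubiquitin ligases, phosphatases and adaptors. Of 38 entries, 30 matched and all 30 passed the filter, of which 18 rose, 5 fell and 7 were not called, beside the same 36.7%, 35.7% and 72.5% over all tested genes. The median log2 fold change was 0.30. EP300, a histone acetyltransferase and SMAD coactivator, averaged 141 CPM in myotubes and 41.6 CPM in myoblasts (log2 fold change 1.76 ± 0.06). SKI, the corepressor related to SKIL, averaged 35.0 CPM in myotubes and 10.4 CPM in myoblasts (log2 fold change 1.75 ± 0.12). TOB1, which restrains cell division and BMP signalling, averaged 46.6 CPM in myotubes and 133 CPM in myoblasts (log2 fold change -1.51 ± 0.07). DAB2, an endocytic adaptor of TGF-beta receptors, averaged 24.1 CPM in myotubes and 49.3 CPM in myoblasts (log2 fold change -1.03 ± 0.10).

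The target list holds genes known from other systems to respond to BMP or TGF-beta. Of 46 entries, 34 matched and 32 passed the filter, of which 12 rose, 16 fell and 4 were not called, again beside 36.7% higher and 35.7% lower over all tested genes. The median log2 fold change was -0.16. The 4 ID genes, direct BMP targets that block the MYOD family, all fell. Id1 had the largest fall of the list (log2 fold change -3.49 ± 0.12), and Id3, at 237 CPM in myotubes and 477 CPM in myoblasts, had the smallest of the 4 (log2 fold change -1.01 ± 0.09). DLX5, a homeobox gene induced by BMPs in bone cells of mammals, averaged 2.16 CPM in myotubes and 20.9 CPM in myoblasts (log2 fold change -3.27 ± 0.17).

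ATOH8, a BMP target in endothelium and liver of mammals, averaged 139 CPM in myotubes and 627 CPM in myoblasts (log2 fold change -2.17 ± 0.09), and CTGF, a TGF-beta target, averaged 592 CPM in myotubes and 1525 CPM in myoblasts (log2 fold change -1.37 ± 0.05). Others rose. ACTA2, smooth muscle actin, averaged 3982 CPM in myotubes and 611 CPM in myoblasts (log2 fold change 2.70 ± 0.06), and CILP, a matrix protein, averaged 10.5 CPM in myotubes and 1.66 CPM in myoblasts (log2 fold change 2.66 ± 0.18). MSX2, a homeobox target of BMP, went against the ID genes (log2 fold change 1.63 ± 0.21), at 8.82 CPM in myotubes and 2.82 CPM in myoblasts. MSX1 of the same list was more abundant, at 51.8 CPM in myotubes and 73.8 CPM in myoblasts, and fell (log2 fold change -0.51 ± 0.12). Id3, ATOH8, CTGF, MSX1 and MSX2 were picked after their values were seen. COL1A2 of the target list, which also rose, is shared with the fibroblast markers. ACTA2 and TAGLN are shared with the smooth muscle markers, of which 3 of 5 rose.

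**Figure D4:**
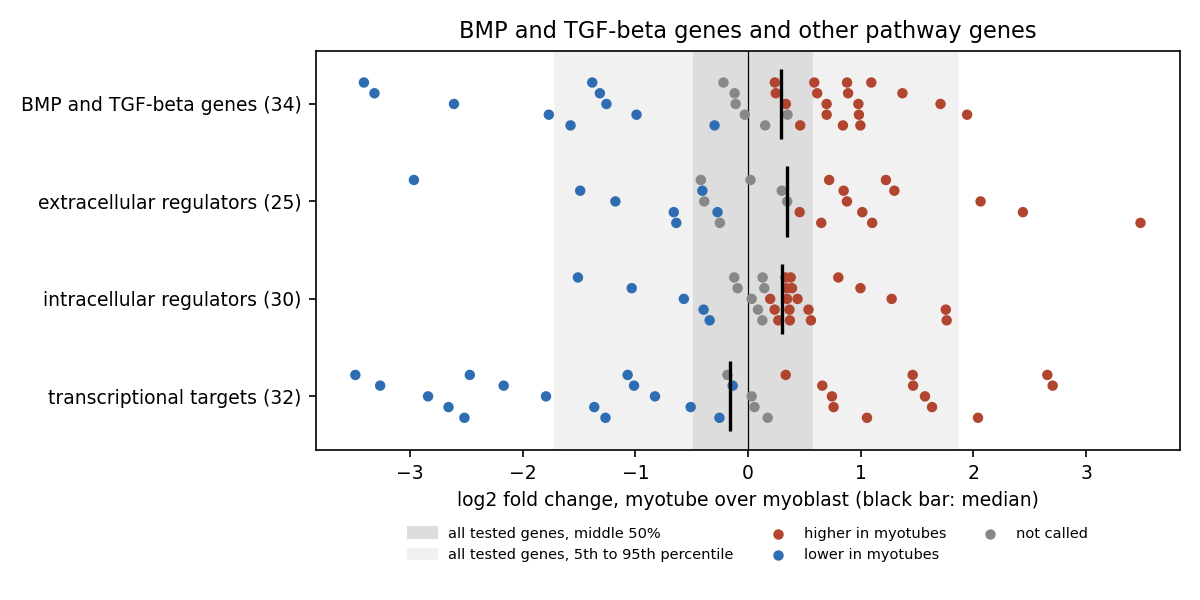
The log2 fold change of myotubes over myoblasts (x axis) is plotted for each gene that passed the filter, in 4 rows with 1 point per gene and a black bar at the median, over grey bands that mark the middle 50% and the 5th to 95th percentile of all 12808 tested genes. The medians are 0.29 for the 34 BMP and TGF-beta genes, 0.35 and 0.30 for the regulators and -0.16 for the targets, all within the middle 50% of all genes.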

How the data were processed

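For each of the 6 libraries the authors deposited raw read counts and FPKM values per gene, per the file headers. HISAT and HTSeq are named without a version, per the submitters' processing notes. Build, strandedness and the handling of reads that map to several places were not given in the sources used here. Positions are printed as deposited. Groups were taken from the labels, since the header prefix of the myoblast tables differs from their titles. Loci without an Ensembl identifier (1.66 to 2.12% of counts) and 2 rows of text in each myotube table were left out.

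Genes with a mean of at least 1 FPKM were tested on counts in edgeR 4.0.16 under R 4.3.3 (quasi-likelihood test, TMM scaling). P-values are two-sided and were adjusted by the Benjamini-Hochberg method across the 12808 genes tested. CPM uses TMM-scaled library sizes over those genes. Standard errors and intervals come from the F statistic. edgeR put the common biological coefficient of variation at 0.0975. The test was checked on simulated counts in which only a small part of the genes differed, unlike here. That check therefore does not bear on the choice of scaling. DESeq2 1.42.0, limma 3.58.1 on log2(FPKM + 1), log2(FPKM + 0.1), log2(TPM + 1) and quantile-normalised values, other scalings and filters, and fits without each library gave alternatives. The genes, lists, roles and tests were chosen with earlier results of these data known. Every gene of the name rule that passed the filter is named except 1, which is not reported here, those called with at least a 2-fold change with all library values, and of each further list the 2 called genes with the largest change in each direction. Others are said to be picked after their values were seen. Replicates of a group differed by more than counting noise. No sequences are shown.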

Additional observations from a re-analysis of the deposited data

How the results depend on the processing

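Over 18 alternatives, 25 of the 34 tested genes kept their direction and call, and 9 (ACVR1, BMP2K, BMPR1B, LTBP1, SMAD1, SMAD3, SMAD6, TGFBR2 and TGFBRAP1) did not under at least 1. Counted over all 46 genes, those called higher numbered 15 to 20 and those called lower 9 to 14. With each library left out in turn they numbered 16 to 19 and 10 to 11. The 14 lower came with the filterByExpr filter, and 13 were lower with no filter. Both settings also test genes that lie under the main filter, so that spread is not one of the 34 genes alone. The further lists held 37 to 49 higher and 24 to 29 lower, or 39 to 41 and 25 to 29 with a library left out. Signs turned for genes that were not called. The log2 fold change of LTBP1 was 0.0297 with library totals, 0.0347 for log2(FPKM + 1), 0.0349 for log2(FPKM + 0.1), 0.1562 for log2(TPM + 1) and 0.0781 by quantile normalization, and ran from -0.0672 to 0.0125 with a library left out. That of ACVR1 was 0.0651 for log2(TPM + 1) and 0.0021 by quantile normalization. That of BMPR1B was 0.041 for log2(TPM + 1) and ran from -0.2828 to 0.0599 with a library left out. The cause was not tested. With the replicate number as a block, 16 genes were called higher and 10 lower, and SMAD3 and BMP2K lost their calls. Deviations of libraries with the same number correlated at -0.08, 0.17 and -0.26, so the numbers were not taken as pairs. Counts under the filter limit what can be said of 12 genes.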

Other observations

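Some of the 46 genes lie close together in the listed positions. SMAD6 and SMAD3 are neighbours on chromosome 10, 85245 bases apart, and SMAD6 was lower (log2 fold change -0.30 ± 0.09) while SMAD3 was higher (0.24 ± 0.09) in myotubes. Neither call held under every alternative, and the SMAD3 groups overlapped. LTBP2 and TGFB3 lie 469637 bases apart on chromosome 5, and both fell, with log2 fold changes of -1.58 ± 0.12 and -1.38 ± 0.06. BMP2K and BMP3, 527498 bases apart on chromosome 4, did not move alike, at 0.25 ± 0.10 and -3.32 ± 0.39. On chromosome 7, ACVR1C and ACVR1 are 12362 bases apart and differ widely in level, with 12 and 12382 counts over the myotube libraries and 28 and 10115 counts over the myoblast libraries.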
